A study of Mus musculus with 12 samples.

Results

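MicroRNA genes were followed here through the open chromatin around them, in 3 sorted cell populations of the mouse forebrain. A region counted as a microRNA-nearest peak when the gene whose annotated transcription start site (TSS) lay closest to it carried a symbol that began with Mir and a digit, or with Mirlet. This rule took 2700 of 91770 peaks in microglia (2.94%, near 589 microRNA genes). It took 4345 of 107627 peaks in NeuN+ nuclei (4.04%, 740 genes) and 2818 of 82577 peaks in Olig2+ nuclei (3.41%, 557 genes). The 3 peak tables were kept apart. Together they named 858 microRNA genes, of which 394 had a peak in all 3 tables.

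The chromatin came from C57BL/6 mice aged 4 months, and the comparison was between WT animals and SgshKO animals. Sgsh encodes the lysosomal sulfamidase that takes part in breaking down heparan sulfate, and its loss causes mucopolysaccharidosis type IIIA in people. Microglia were sorted as DAPI-negative CD11b+/CD45low/CX3CR1+ cells. Nuclei, lightly fixed in 0.1% formaldehyde, were sorted as PU.1-/OLIG2-/NEUN+ (neurons) or PU.1-/OLIG2+/NEUN- (oligodendrocyte lineage). Each of the 6 groups (WT and SgshKO in each sort) held 2 libraries, 12 in all. The sources used here do not give the type of the Sgsh allele, the sex of the mice or the preparation batches. Nothing in the labels says that the 2 libraries of a group came from separate animals, so p-values measure only the spread between these libraries, which may be technical.

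ATAC-seq uses a transposase that cuts accessible DNA, so the number of sequenced tags in a peak reports how open that stretch was. MicroRNA genes are transcribed as long primary transcripts, which Drosha and Dgcr8 trim in the nucleus to a hairpin. Dicer then cuts the hairpin to a short duplex, and 1 strand enters an Argonaute protein, where bases 2 to 8 (the seed) pair with target messenger RNAs. Many hairpins lie inside introns of coding genes or of non-coding host transcripts, and several can share 1 primary transcript. The annotated start of a microRNA gene is often the start of its hairpin, which can lie far from the promoter of the primary transcript. A peak given to a microRNA by nearest start may therefore belong to a host or neighbouring gene, and openness says nothing of how much mature microRNA the cells held.

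The mature sequences of the microRNAs that the results below turn on are printed with the seed in capitals, from RefSeq (GRCm38.p6). In microglia large changes lay at the start of the miR-22 host transcript and at peaks nearest to the miR-23a cluster, miR-34a and miR-152 genes. These called peaks lay away from the hairpins.
miR-22-3p: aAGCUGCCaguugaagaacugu
miR-23a-3p: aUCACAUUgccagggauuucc
miR-27a-3p: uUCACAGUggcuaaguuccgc
miR-24-3p: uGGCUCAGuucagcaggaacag
miR-34a-5p: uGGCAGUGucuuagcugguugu
miR-152-3p: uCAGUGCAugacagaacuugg
miR-22-3p lies at chr11:75463772-75463793 on the plus strand. The 3 members of the miR-23a cluster lie on the plus strand in 1 short stretch, at chr8:84208563-84208583 (miR-23a-3p), chr8:84208727-84208747 (miR-27a-3p) and chr8:84208875-84208896 (miR-24-3p), and have 3 different seeds. miR-34a-5p lies at chr4:150068473-150068494 and miR-152-3p at chr11:96850439-96850459, both on the plus strand.

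The next set is shown because peaks of these genes fell in NeuN+ nuclei, at the start for miR-9, miR-132 and miR-212 and away from it for miR-29b, and because pairs of them share a seed.
miR-9-5p: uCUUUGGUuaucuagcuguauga
miR-132-3p: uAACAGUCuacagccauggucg
miR-212-3p: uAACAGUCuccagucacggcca
miR-29b-3p: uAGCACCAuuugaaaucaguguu
miR-29a-3p: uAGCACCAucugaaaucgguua
miR-132-3p (chr11:75173723-75173744, plus strand) and miR-212-3p (chr11:75173443-75173464, plus strand) have the same seed, AACAGUC. miR-29b-3p (chr6:31063025-31063047, minus strand) and miR-29a-3p share the seed AGCACCA. The copy of miR-9-5p in question lies at chr7:79505279-79505301 on the plus strand, downstream of the start of its host transcript Mir9-3hg.

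The last set belongs to genes with changes in Olig2+ nuclei.
miR-338-3p: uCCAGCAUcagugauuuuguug
miR-3065-5p: uCAACAAAaucacugaugcugg
miR-21a-5p: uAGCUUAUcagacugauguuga
let-7i-5p: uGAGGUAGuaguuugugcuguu
let-7a-5p: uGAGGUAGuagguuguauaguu
miR-338-3p (chr11:120014781-120014802, minus strand) and miR-3065-5p (chr11:120014780-120014801, plus strand) are read from opposite strands of the same site. miR-21a-5p lies at chr11:86584120-86584141 on the minus strand. let-7i-5p (chr10:122985698-122985719) and let-7a-5p (the copy at chr13:48538239-48538260), both on the minus strand, share the seed GAGGUAG.

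Promoters of both long host transcripts are shown because a peak covered their start and changed between genotypes. Each runs from 250 bases before to 50 after the RefSeq start (GRCm38.p6), and capitals mark matches on either strand to the GC box GGGCGG, the cAMP response element TGACGTCA, CCAAT or the E-box CACGTG.
Mir22hg, chr11:75461289-75461588, plus strand: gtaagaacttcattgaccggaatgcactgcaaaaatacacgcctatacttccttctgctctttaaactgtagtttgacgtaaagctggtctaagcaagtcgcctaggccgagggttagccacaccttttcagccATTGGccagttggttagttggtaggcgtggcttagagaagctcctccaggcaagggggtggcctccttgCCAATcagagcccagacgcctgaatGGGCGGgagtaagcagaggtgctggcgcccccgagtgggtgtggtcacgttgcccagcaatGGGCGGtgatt
Mir9-3hg, chr7:79499776-79500075, plus strand: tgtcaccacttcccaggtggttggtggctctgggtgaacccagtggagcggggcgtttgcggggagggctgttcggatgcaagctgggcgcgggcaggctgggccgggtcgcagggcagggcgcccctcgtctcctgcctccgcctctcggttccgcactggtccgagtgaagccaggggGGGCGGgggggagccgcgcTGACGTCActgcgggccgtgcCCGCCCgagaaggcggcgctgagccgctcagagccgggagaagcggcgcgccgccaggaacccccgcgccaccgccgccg
The Mir22hg window was 54.7% G or C and held 2 GC boxes and 2 CCAAT matches. The Mir9-3hg window was 75% G or C and held 2 GC boxes and 1 cAMP response element. Neither held the E-box. Among 32851 RefSeq promoter windows of the same length, 35.7% held the GC box, 37.4% CCAAT, 1.79% the cAMP response element and 7.15% the E-box, and the median G or C content was 52.7%. Such matches describe the letters only.

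All values below are tags in a peak after the authors scaled each library to a total of 10000000 tags. Changes are SgshKO minus WT on the log2(value + 1) scale with the standard error after ±, which understates changes of low peaks. A peak was called when limma's adjusted p (Benjamini-Hochberg over all peaks of its table) was under 0.05. Total tags per library ran from 10771659 to 11804222 in microglia, 14326703 to 17706971 in NeuN+ nuclei and 15044194 to 19555924 in Olig2+ nuclei. The median microRNA-nearest peak held 31.25, 17.5 and 24 reads per library in these sorts, so microglia had the most reads per member. The share of tags inside peaks moved with genotype in NeuN+ nuclei, at 26.7% and 25.9% in WT against 21.5% and 21.2% in SgshKO. It was 55.8%, 48.7% (WT), 67.4% and 53.7% (SgshKO) in microglia, and 30.9% to 31.8% in Olig2+ nuclei. Of the defining markers, 9 of 10 microglial genes had a peak at their start in microglia, with Aif1 the exception. All 10 neuronal genes had one in NeuN+ nuclei and all 10 oligodendrocyte-lineage genes in Olig2+ nuclei. The summed starts of the neuronal markers in NeuN+ nuclei came to 1326.0 and 1240.8 in WT against 714.1 and 721.2 in SgshKO. The lineage markers in Olig2+ nuclei came to 3124.5 and 3090.6 in WT against 2680.7 and 2705.4 in SgshKO. The single endothelial marker with a start peak there, Kdr, stood at 3.6 and 2.6 in WT against 8.6 and 10.6. Among blood myeloid markers, those with a start peak in microglia summed to 166.8 and 127.9 in WT and 202.6 and 200.5 in SgshKO, and Ly6c2, Ccr2 and S100a9 had no such peak. The part of these shifts in the results below was not tested.

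Most microRNA-nearest peaks lay away from the annotated starts. Within 1000 bp of the start lay 249 of them in microglia (9.2%, against 25.9% of all peaks), 407 in NeuN+ nuclei (9.4% against 21.7%) and 291 in Olig2+ nuclei (10.3% against 24.4%). The median distance was 14517 bp, 14467 bp and 12103 bp in the 3 sorts. Bodies of coding genes held 63.1%, 65.2% and 72.0% of the members, and 65, 103 and 72 of them overlapped a RefSeq hairpin by at least 1 base. A single gene could collect many peaks, with up to 60 for Mir1901 in microglia, 90 for Mir29b-1 in NeuN+ nuclei and 100 for Mir1936 in Olig2+ nuclei. Peaks that share a nearest gene are not independent of each other.

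Microglia had 203 called members (7.52%), 128 higher and 75 lower in SgshKO. Over all microglial peaks 7.37% were called, 5.05% higher and 2.33% lower, so the share among members was near that background. NeuN+ nuclei had 1185 called members (27.3%), 449 higher and 736 lower, against 29.8% of all peaks (10.2% higher and 19.6% lower). Olig2+ nuclei had 565 called members (20%), 223 higher and 342 lower, against 19.8% of all peaks (8.17% higher and 11.7% lower). In the same order of sorts the members' median change was -0.12, -0.23 and -0.11, beside -0.08, -0.23 and -0.07 for all peaks. Without WT replicate 1 or 2 the count of called members was 29 or 11 in microglia, 332 or 426 in NeuN+ nuclei and 201 or 193 in Olig2+ nuclei. Without SgshKO replicate 1 or 2 it was 561 or 527 in microglia and 0 in both cases in NeuN+ nuclei. The direction among called members depended on the scaling. In NeuN+ nuclei 37.9% were higher as deposited, 74.4% after scaling to tags inside peaks, 65.6% by median of ratios and 64.2% after quantile normalization. In-peak scaling moved the median of all NeuN+ peaks from -0.23 to 0.05. In microglia 63.1% were higher as deposited and 30.9% after in-peak scaling, which moved the median of all peaks to -0.28. In Olig2+ nuclei 39.5% were higher as deposited, 50.5% by median of ratios and 53.1% after quantile normalization.

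**Figure D1:**
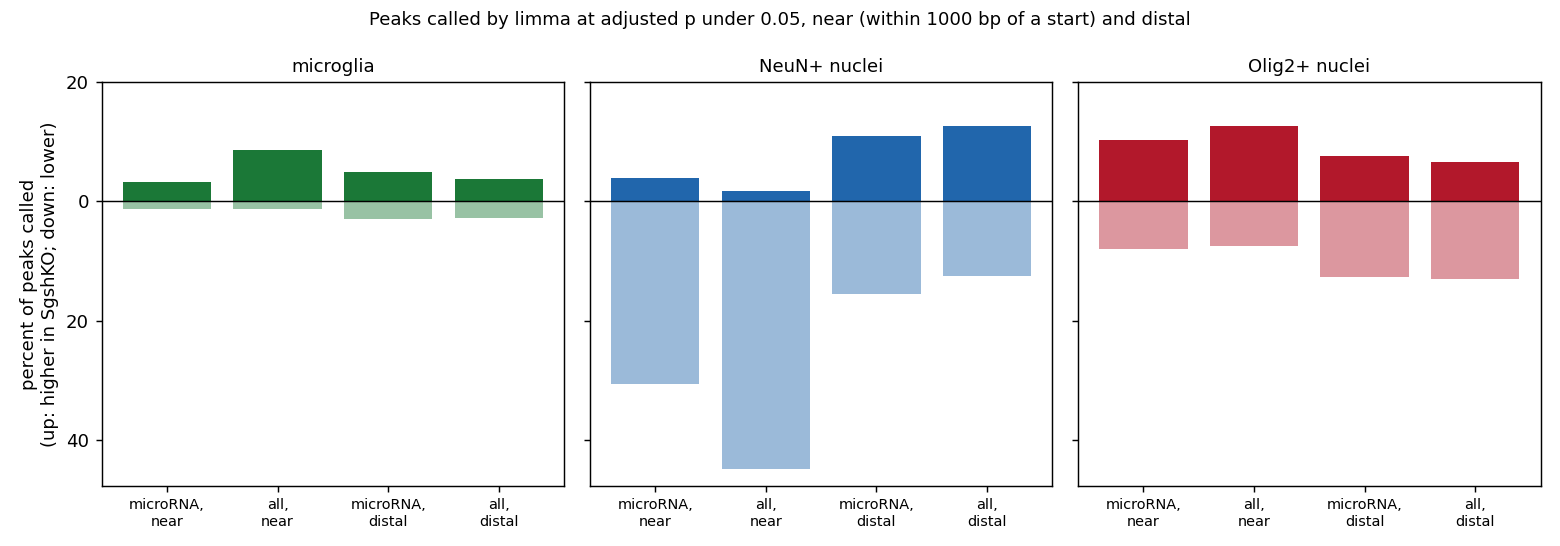
Percent of peaks called by limma at an adjusted p under 0.05, higher (up) and lower (down) in SgshKO, for microRNA-nearest and all peaks within 1000 bp of a start (near) and farther away (distal), by sort. Near a start in NeuN+ nuclei the lower bar of all peaks reaches 44.9%, and that of the members (125 of 407) is shorter.

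Close to the annotated starts the calls were mostly higher in microglia and lower in NeuN+ nuclei, both among members and among all peaks. Of the 249 microglial members within 1000 bp, 8 were higher and 3 lower, where 8.59% of all peaks this close to a start were higher and 1.2% lower. Of the 407 in NeuN+ nuclei, 16 were higher and 125 lower, beside 1.74% and 44.9% of all start peaks. Of the 291 in Olig2+ nuclei, 30 were higher and 23 lower, beside 12.7% and 7.56%. Among the microglial start peaks, 2 were called without WT replicate 1 and 0 without WT replicate 2, against 40 and 39 without SgshKO replicate 1 and 2. In NeuN+ nuclei 0 were called without either SgshKO library. Peaks that overlapped a hairpin were called in 2 of 65 cases in microglia (3.08%, both higher). In NeuN+ nuclei 37 of 103 were called (35.9%, 3 higher and 34 lower), and in Olig2+ nuclei 17 of 72 (23.6%, 14 higher and 3 lower). In the same order of sorts 9.8%, 46.6% and 20.3% of all start peaks were called, and 7.37%, 29.8% and 19.8% of all peaks.

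The start of Mir22hg, the host transcript of miR-22, was among the best covered of the 8 start regions that opened in SgshKO microglia. Its log2 change was among the smaller ones of these 8. Its peak (chr11:75461429-75461690) held 308.52 and 338.01 tags in WT microglia and 689.13 and 828.1 in SgshKO. Both SgshKO libraries stood above both WT libraries, and the change was 1.22 ± 0.25 (limma adjusted p = 0.00122). The same start went the other way in the nuclei. In NeuN+ nuclei it held 369.89 and 343.93 tags in WT and 233.83 and 220.31 in SgshKO (-0.65 ± 0.08, limma adjusted p = 1.49e-05). In Olig2+ nuclei it held 699.17 and 668.34 in WT and 510.32 and 585.61 in SgshKO (-0.32 ± 0.06, limma adjusted p = 0.000359). The groups did not overlap in any sort. Without WT replicate 1 or 2 the microglial change of Mir22hg was 1.16 or 1.29 and no longer called (limma adjusted p = 0.114 and 0.0939). The NeuN+ change of Mir22hg was -0.09 after quantile normalization and no longer called. The peak nearest to Mir22 itself, at -693 bp, was not called in microglia (-0.01, limma adjusted p = 0.993).

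Mir210, a microRNA induced by hypoxia, had a peak at its start (chr7:141221725-141221947) with 305.93 and 278.71 tags in WT microglia and 870.94 and 635.93 in SgshKO. The change of Mir210 was 1.35 ± 0.25 (limma adjusted p = 0.000488), and it ended as a call without WT replicate 2 (1.28, limma adjusted p = 0.1). In Olig2+ nuclei the Mir210 start peak held 581.43 and 565.56 tags in WT and 520.15 and 510.5 in SgshKO and was not called (-0.15, limma adjusted p = 0.0584). Mir8102 sits at the promoter of Pip4k2b, a phosphoinositide kinase gene, and its hairpin overlaps the peak. That peak held 73.46 and 62.69 tags in WT microglia and 173.15 and 316.57 in SgshKO (1.77 ± 0.31, limma adjusted p = 0.000208). Without WT replicate 2 the Mir8102 change was 1.66 and not called (limma adjusted p = 0.0697).

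The other 5 starts that opened in SgshKO microglia were weaker peaks. Mir8111 held 65.68 and 49.98 tags in WT and 147.18 and 127.19 in SgshKO. Mir6958, inside Dennd6b, held 55.31 and 55.91 in WT and 163.63 and 93.76 in SgshKO. Mir6935, inside the actin gene Actg1, held 12.1 and 11.01 in WT and 36.36 and 29.71 in SgshKO. Mir7213, inside the growth factor gene Pdgfb, held 8.64 and 7.62 in WT and 36.36 and 18.57 in SgshKO. Mir6910 held 7.78 and 7.62 in WT and 26.84 and 23.21 in SgshKO. In all 5 both SgshKO libraries were above both WT libraries, with changes from 1.14 (Mir6958) to 1.58 (Mir6910) and limma adjusted p from 0.0102 (Mir8111) to 0.0351 (Mir6935). All 5 calls ended without WT replicate 1 and without WT replicate 2: Mir8111 (limma adjusted p = 0.17 and 0.626), Mir6958 (0.415 and 0.565), Mir6935 (0.361 and 0.6), Mir7213 (0.318 and 0.574) and Mir6910 (0.363 and 0.533). By DESeq2 the calls of Mir6935, Mir7213 and Mir6910 also ended.

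Start regions of 3 microRNA genes closed in SgshKO microglia. Mir3107, inside the ankyrin gene Ank1, held 25.93 and 22.03 tags in WT and 3.46 and 1.86 in SgshKO, a change of -2.80 ± 0.51 (limma adjusted p = 0.000377). Mir7086, at the end of Il10ra, which encodes a chain of the interleukin-10 receptor, held 76.91 and 73.7 in WT and 41.56 and 28.78 in SgshKO. Mir8090 held 30.25 and 20.33 in WT, against 8.66 and 8.36 in SgshKO. The calls of Mir7086 (limma adjusted p = 0.0465) and Mir8090 (limma adjusted p = 0.0487) lay just under the threshold. Without WT replicate 1 or 2 all 3 calls ended: Mir3107 (limma adjusted p = 0.164 and 0.158), Mir7086 (0.586 and 0.667) and Mir8090 (0.725 and 0.504).

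Peaks near microRNAs known from myeloid cells were the list with most calls in microglia: 12 of 90 peaks rose and 0 fell (13.3% called, beside 5.05% of all microglial peaks higher and 2.33% lower), with a median change of 0.17. Of the 12, 7 lay at the Mir23a cluster (miR-23a, miR-27a and miR-24). All 7 lay between -10.0 and -4.4 kb from the annotated start, where negative distances are upstream. The 18 peaks of the Mir23a locus summed to 3162.1 and 2825.2 tags in WT and 6898.2 and 4700.3 in SgshKO, and 17 of 18 changes were above 0. The strongest peak, at -9983 bp (chr8:84198400-84198670), was also the highest of all microglial members. It held 813.22 and 802.26 tags in WT and 1909.83 and 1532.73 in SgshKO (1.08 ± 0.23, limma adjusted p = 0.00193). The hairpin start of Mir23a itself showed no separation, with 31.98 and 28.8 tags in WT and 60.6 and 18.57 in SgshKO. Of the 7 Mir23a calls 3 held after quantile normalization, 1 without WT replicate 1 and 0 without WT replicate 2. For the -9983 bp peak of Mir23a the adjusted p by limma became 0.0651 and 0.116 without these libraries.

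Other loci of that list were less uniform. Mir146 encodes miR-146a, which NF-kB induces and which dampens innate immune signalling. Its peak at -10988 bp held 453.71 and 338.86 tags in WT and 702.12 and 672.13 in SgshKO microglia (0.81, limma adjusted p = 0.0368). Its peak at -5769 bp held 3.46 and 5.08 in WT and 16.45 and 19.5 in SgshKO (1.86, limma adjusted p = 0.017). The other 11 of 13 Mir146 peaks were not called, and both calls ended without a WT library. Mir21a, a microRNA induced in injury and inflammation, had 1 called peak of 11, at -9080 bp, with 1.73 and 3.39 tags in WT and 17.31 and 12.07 in SgshKO (2.16, limma adjusted p = 0.00858), a call that ended without WT replicate 1 or 2 (0.403 and 0.232). Mir142, which marks blood-derived cells, had 8 peaks with 991.2 and 919.2 summed tags in WT and 1288.2 and 1194.8 in SgshKO, and none passed the test. The Mir142 start held 128.77 and 126.23 tags in WT and 114.28 and 129.04 in SgshKO, so its libraries overlapped.

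Mir34a, a target of the tumour suppressor p53, held 3 of the 4 increases of the stress list in microglia; the other was the 1 peak of Mir222. Its peak at 7940 bp (chr4:150076230-150076558) held 85.56 and 38.12 tags in WT and 231.15 and 233.02 in SgshKO (2.00 ± 0.32, limma adjusted p = 7.26e-05). The Mir34a peak at -7484 bp held 143.46 and 75.4 in WT and 279.63 and 233.95 in SgshKO (1.29, limma adjusted p = 0.00512). The Mir34a peak at -3997 bp held 12.1 and 13.55 in WT and 46.75 and 38.99 in SgshKO (1.66, limma adjusted p = 0.00976). All 3 were called; 2 held without WT replicate 1 and 0 without WT replicate 2, where the 7940 bp peak of Mir34a changed by 1.43 (limma adjusted p = 0.186). Over the whole stress list 4 of 66 peaks rose and 1 fell (7.58% called), near the 7.37% called over all microglial peaks.

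The largest increases in microglia among better covered peaks lay far from most of the named starts. Mir140 is hosted by the ubiquitin ligase gene Wwp2. A peak inside Wwp2 (chr8:107556349-107556678) held 29.38 and 32.19 tags in WT and 173.15 and 135.54 in SgshKO (2.28 ± 0.33, limma adjusted p = 1.4e-05). Mir297c, 137478 bp away, rose from 10.37 and 5.93 to 74.45 and 44.56 (2.72 ± 0.44, limma adjusted p = 7.23e-05). Mir7237, with its peak in the body of Zfp469, held 13.83 and 25.41 in WT and 158.43 and 64.06 in SgshKO (2.36 ± 0.40, limma adjusted p = 0.000139). Mir5131, with its peak in an intron of Ddhd1, held 19.01 and 16.94 in WT and 77.92 and 73.34 in SgshKO (2.02 ± 0.37, limma adjusted p = 0.000469). The calls of Mir140, Mir297c and Mir7237 held under all 15 alternatives, and that of Mir5131 ended without WT replicate 2 (limma adjusted p = 0.0872).

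Decreases in microglia included a peak in an exon of Sall1, which encodes a transcription factor that keeps microglial identity. The peak, nearest to Mir8110, held 64.82 and 72.01 tags in WT and 22.51 and 25.99 in SgshKO (-1.46 ± 0.37, limma adjusted p = 0.00962). Mir5130, with its peak 2633 bp from Kctd12, held 63.95 and 61.84 in WT and 12.99 and 14.85 in SgshKO (-2.10 ± 0.39, limma adjusted p = 0.000536). Mir5098, inside the mTORC1 subunit gene Rptor, held 110.62 and 143.17 in WT and 62.33 and 25.07 in SgshKO. Mir6995, inside the podosome gene Sh3pxd2a, held 214.32 and 194.85 in WT and 96.96 and 52.92 in SgshKO. At Mir152 all 10 peaks had negative changes and 4 were called, between 22.3 and 30.0 kb from the start. The locus of Mir152 summed to 689.6 and 618.4 tags in WT and 354.1 and 288.7 in SgshKO. The strongest Mir152 peak (chr11:96880229-96880537) held 79.51 and 80.48 in WT and 20.78 and 16.71 in SgshKO (-2.04 ± 0.37, limma adjusted p = 0.000355). Mir6983 lies in Csf1r, the receptor gene on which microglia depend, and 7 of its 35 peaks fell while 0 rose. This was 20% called, beside 2.33% of all microglial peaks lower and 5.05% higher. The Mir6983 calls were not followed through the fits without 1 library. Neither the 4 calls of Mir152 nor those of Mir8110, Mir5130, Mir5098 and Mir6995 held without WT replicate 1 or WT replicate 2. Without these libraries in turn the changes were -1.54 and -1.39 (Mir8110), -2.08 and -2.12 (Mir5130), -1.83 and -1.46 (Mir5098) and -1.43 and -1.57 (Mir6995).

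**Figure D2:**
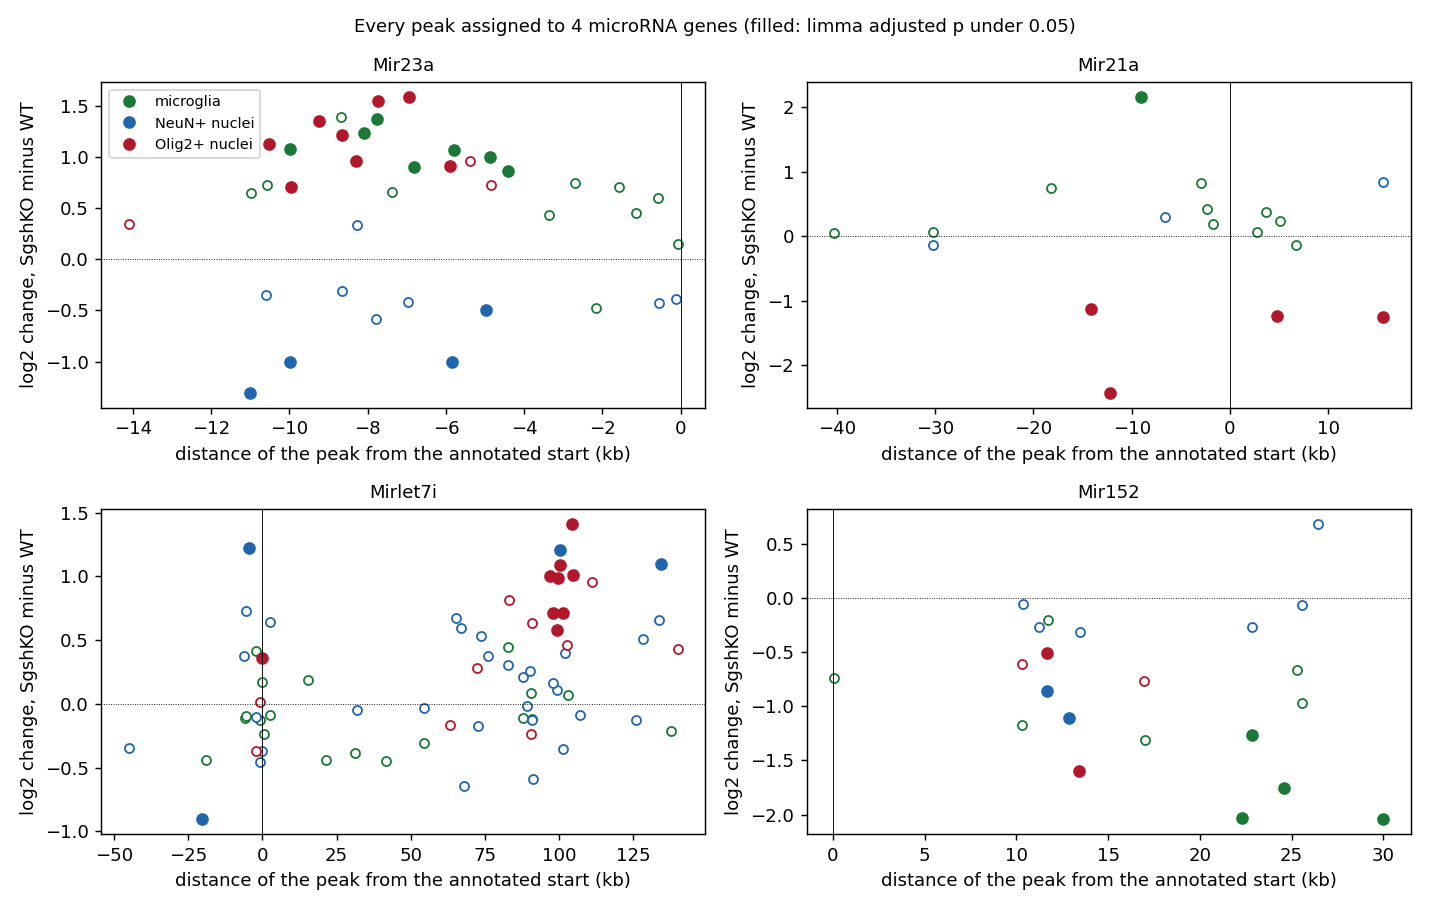
Every peak assigned to Mir23a, Mir21a, Mirlet7i and Mir152, coloured by sort, as log2 change (SgshKO minus WT) against distance from the annotated start in kb, with called peaks filled. Called peaks of Mir23a lie above 0 in microglia and Olig2+ nuclei and below 0 in NeuN+ nuclei (7, 8 and 4 calls).

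The remaining lists had few peaks in microglia, where 7.37% of all peaks were called. Of 26 peaks near the neuron-enriched list 1 was called (3.85%), a peak 140745 bp from Mir128-2, which held 6.05 and 1.69 tags in WT and 52.81 and 34.35 in SgshKO (3.32 ± 0.50, limma adjusted p = 2.83e-05). The oligodendrocyte list had 4 peaks in microglia, the cell-cycle list 7, and none was called. The let-7 list had 1 called of 31, the peak at -8.4 kb from Mirlet7a-1, which held 201.36 and 160.96 in WT and 328.12 and 483.68 in SgshKO (1.14 ± 0.27, limma adjusted p = 0.00616). The call of Mirlet7a-1 ended without either WT library (limma adjusted p = 0.11 and 0.517).

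In NeuN+ nuclei the start regions of several microRNAs that neurons use were lower in SgshKO, as were those of many other genes. The neuron-enriched list had 308 peaks near 22 genes, of which 21 rose and 54 fell (24.4% called, beside 29.8% of all peaks), with a median change of -0.31. At the starts 4 of its 40 peaks rose and 10 fell, beside 1.74% higher and 44.9% lower of all NeuN+ start peaks, so the fall was no more frequent in the list than among all starts. Each of the 22 genes had at least 1 called peak. No NeuN+ call named below held without either SgshKO library: 0 of 1185 members stayed called by limma in each case. When 10% of the reads of WT replicate 2 were also removed, 1035 and 1044 were called, of which 822 and 840 were calls of the full comparison in the same direction. That setting was chosen after seeing the data, and why the counts moved was not tested.

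Mir9-3hg hosts miR-9, which drives neuronal differentiation. Its start peak (chr7:79499880-79500086) held 111.59 and 101.09 tags in WT NeuN+ nuclei and 50.26 and 42.54 in SgshKO (-1.18 ± 0.15, limma adjusted p = 1.96e-05). The SgshKO libraries lay far below the WT libraries, and the call of Mir9-3hg held after quantile normalization (-0.73). Without SgshKO replicate 1 or 2 its change was -1.3 or -1.06 and missed the threshold (limma adjusted p = 0.126 and 0.129). The other sorts had little at this start: 27.65 and 23.72 (WT) and 24.24 and 21.35 (SgshKO) in microglia, 29.56 and 28.64 (WT) and 30.13 and 28.58 (SgshKO) in Olig2+ nuclei. Neither was called.

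Mir132 and Mir212 come from 1 activity-induced transcript and share a seed. The peak at Mir132 (chr11:75173641-75173896) held 120.65 and 124.81 tags in WT NeuN+ nuclei and 81.67 and 80.63 in SgshKO (-0.59 ± 0.12, limma adjusted p = 0.00156). The peak at Mir212 (chr11:75173117-75173477) held 76.47 and 85.28 in WT and 49.56 and 39.36 in SgshKO (-0.86 ± 0.16, limma adjusted p = 0.000838). In Olig2+ nuclei Mir132 held 15.56 and 19.43 in WT and 25.21 and 25.26 in SgshKO, and Mir212 held 26.45 and 23.52 in WT and 18.45 and 32.57 in SgshKO; neither was called. In NeuN+ nuclei both calls depended on the scaling. After quantile normalization Mir132 changed by -0.05, and Mir212 by -0.44 (limma adjusted p = 0.091).

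Mir124a-3 encodes miR-124, an abundant microRNA of neurons. Its start peak (chr2:180893780-180894000) held 59.48 and 58.73 tags in WT NeuN+ nuclei and 34.2 and 31.11 in SgshKO (-0.84 ± 0.17, limma adjusted p = 0.00163). After quantile normalization Mir124a-3 changed by -0.53 and missed the threshold (limma adjusted p = 0.0518). Another copy's host, Mir124a-1hg, held 27.19 and 24.85 in WT and 15.36 and 18.41 in SgshKO and was not called (limma adjusted p = 0.0587). Mir129-2 held 22.09 and 24.85 in WT and 11.17 and 10.16 in SgshKO (-1.07 ± 0.26, limma adjusted p = 0.005).

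**Figure D3:**
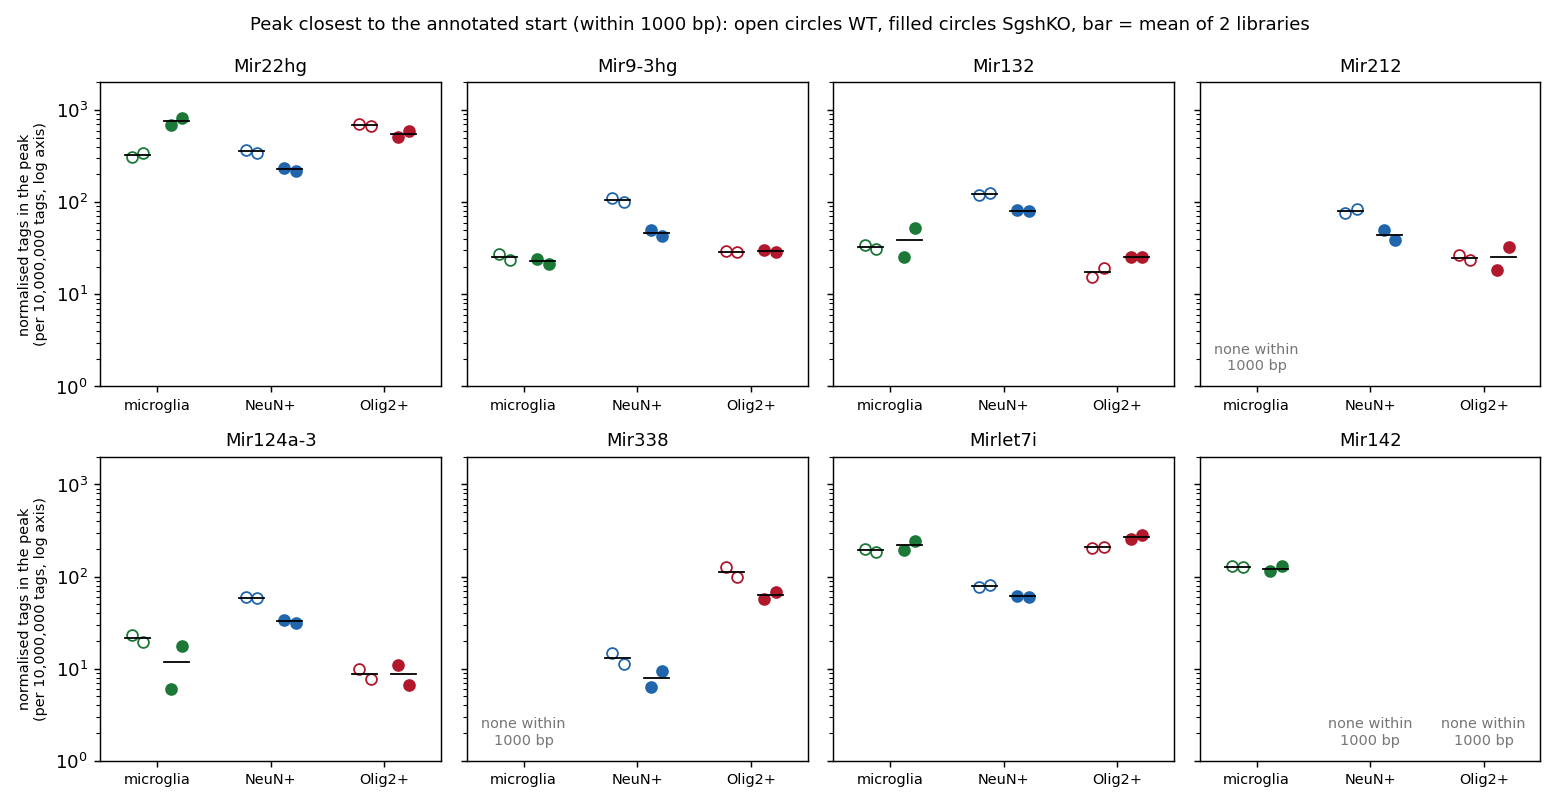
Normalized tags on a log axis in the peak closest to the start of selected microRNA genes, 1 point per library, WT open and SgshKO filled, with a bar at the mean of 2 libraries. In NeuN+ nuclei the SgshKO points of Mir9-3hg (50.26 and 42.54) lie below the WT points (111.59 and 101.09), and in microglia the SgshKO points of Mir22hg (689.13 and 828.1) lie above the WT points (308.52 and 338.01).

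Long loci held many weak peaks. Over all NeuN+ peaks 29.8% were called, 10.2% higher and 19.6% lower. The called share was near that background at Mir128-2 (29.3%) and Mir29b-1 (30%), and was 45.5% at Mir3106. Mir128-2, inside the neuronal gene Arpp21, had 15 lower and 2 higher of 58 peaks. Mir29b-1, with miR-29b and miR-29a, had 26 lower and 1 higher of 90 peaks, and its tags summed to 1344.2 and 1339.6 in WT and 897.6 and 878.0 in SgshKO. Its strongest called decrease, at -33332 bp, ran from 19.26 and 29.93 in WT to 6.28 and 6.35 in SgshKO (-1.77, limma adjusted p = 0.000301). Mir139, inside the phosphodiesterase gene Pde2a, had 8 lower and 0 higher of 26 peaks. Other loci opened in the same libraries. Mir3106, inside Csmd1, had 18 higher and 2 lower of 44 peaks, with sums of 505.8 and 530.8 tags in WT and 818.0 and 786.6 in SgshKO. Mir181a-1 had 7 higher and 0 lower of 14 peaks, all 43.6 kb or more from the start, and both peaks of Mir181b-1 rose (1.67 and 1.72).

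Among called NeuN+ members with a mean at or above the table's median, the largest decrease was nearest to Mir6367 (chr16:91534571-91534778), 12281 bp from Ifngr2, which encodes a chain of the interferon gamma receptor. The peak held 228.28 and 180.16 tags in WT and 25.83 and 27.94 in SgshKO (-2.87 ± 0.15, limma adjusted p = 8.56e-10). Mir7055 lies in Slc17a7, the vesicular glutamate transporter of cortical excitatory neurons, and its peak held 20.96 and 18.07 in WT and 4.19 and 6.35 in SgshKO (-1.73, limma adjusted p = 0.000583). Mir1900 lies at an exon of Icam5, a neuronal adhesion molecule, and changed by -1.73. The largest increase among peaks with a mean at or above the table's median, 1 per gene, was nearest to Mir5623, inside Atrnl1, with 6.23 and 10.73 in WT and 36.99 and 44.44 in SgshKO (2.17 ± 0.27, limma adjusted p = 1.93e-05). A peak of Mir3106 held 14.73 and 18.07 in WT and 66.31 and 56.51 in SgshKO (1.84 ± 0.20, limma adjusted p = 6.31e-06). Among the 5 highest NeuN+ members, 1 per gene, was a peak of Mir30d, below those of Mirlet7a-1 and Mir22hg. The Mir30d peak held 340.44 and 303.84 in WT and 210.1 and 208.25 in SgshKO (-0.62), and changed by -0.06 after quantile normalization.

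MicroRNA genes of other cell types were also called in NeuN+ nuclei. The oligodendrocyte list had 15 lower and 0 higher of 47 peaks (31.9% called, beside 29.8% of all peaks), with a median of -0.69. Of these, 12 lay at Mir3065, a locus of 38 peaks that reaches into Baiap2 and Aatk. Mir219a-2 held 11.33 and 9.04 tags in WT and 3.49 and 5.08 in SgshKO (-1.09, limma adjusted p = 0.0261). This call of Mir219a-2 held in 5 of 14 alternatives and ended with in-peak scaling (-0.83, limma adjusted p = 0.0863), by median of ratios, after quantile normalization, by edgeR and DESeq2, and without any 1 library. Over all NeuN+ peaks 10.2% were higher and 19.6% lower. The myeloid list had 10 higher and 12 lower of 60, the stress list 3 higher and 28 lower of 119, and the let-7 list 4 higher and 7 lower of 51. The cell-cycle list had 2 lower of 4 and the list of other tissues' microRNAs 3 higher and 2 lower of 28.

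**Figure D4:**
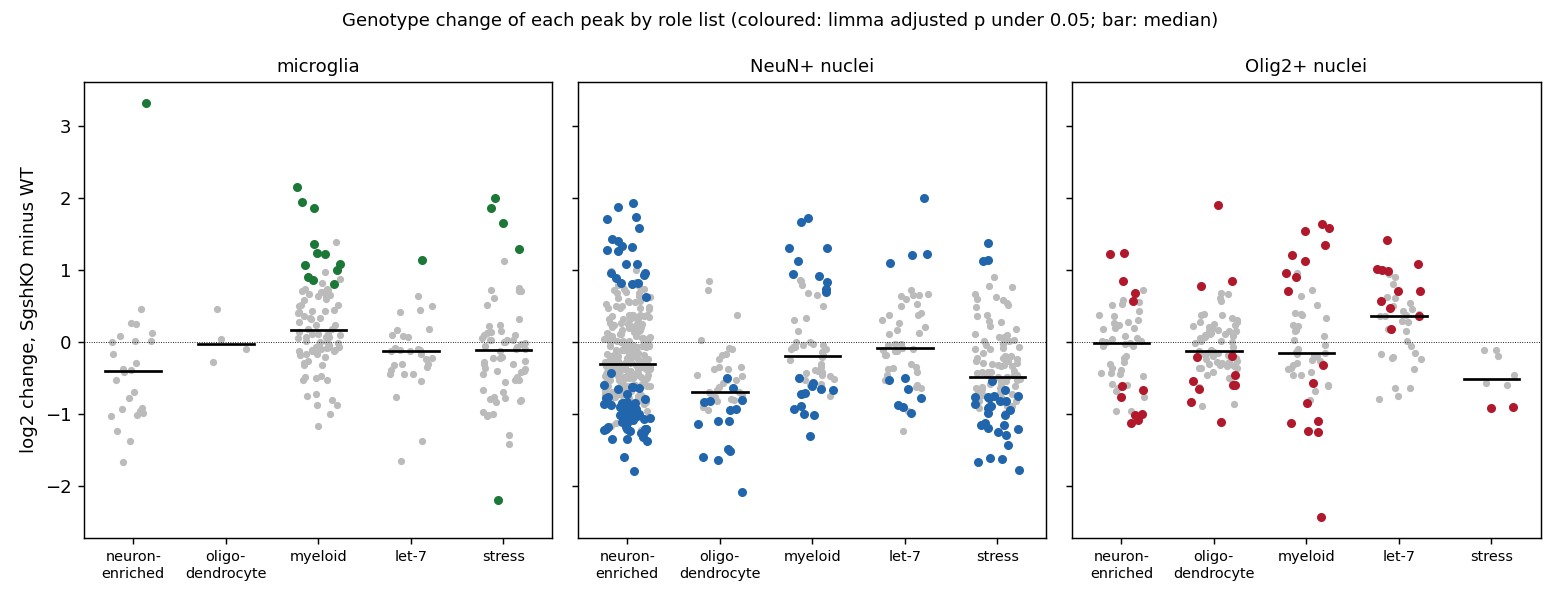
Log2 change (SgshKO minus WT) of each peak in 5 of the 7 role lists, by sort, with called peaks coloured and a bar at the median of each list. The let-7 list lies highest in Olig2+ nuclei (median 0.36), the myeloid list highest in microglia (0.17), and the oligodendrocyte list lies at -0.69 in NeuN+ nuclei.

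In Olig2+ nuclei the start of the miR-338 gene closed in SgshKO. miR-338 and miR-219 promote oligodendrocyte differentiation. The Mir338 peak at -111 bp (chr11:120014870-120015076) held 126.04 and 99.2 tags in WT and 57.79 and 67.8 in SgshKO (-0.83 ± 0.14, limma adjusted p = 0.000133). The neighbouring peak, which overlaps the edge of both hairpins and is nearest to Mir3065 (chr11:120014340-120014776), held 179.98 and 168.75 in WT and 111.29 and 119.65 in SgshKO (-0.59 ± 0.11, limma adjusted p = 0.00024). Both calls held under all 15 alternatives. A stronger Mir338 peak at -2373 bp held 635.38 and 602.38 in WT and 559.5 and 515.15 in SgshKO (-0.20 ± 0.06, limma adjusted p = 0.0147). That weaker call of Mir338 ended in 5 of 15 alternatives: by median of ratios, edgeR and DESeq2, and without WT replicate 1 (limma adjusted p = 0.17) or SgshKO replicate 2 (0.122). The locus of Mir338 had 3 lower and 0 higher of 17 peaks.

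Mir219a-2 changed less. Its start peak in Olig2+ nuclei held 16.08 and 14.83 tags in WT and 17.22 and 17.28 in SgshKO and was not called. The main Mir219a-2 peak, at -11070 bp, held 479.26 and 464.82 in WT and 392.27 and 437.38 in SgshKO (-0.19, limma adjusted p = 0.0449). The Mir219a-2 peak at -6303 bp held 44.61 and 43.98 in WT and 31.36 and 24.59 in SgshKO (-0.65, limma adjusted p = 0.0197). Over the oligodendrocyte list 3 of 73 peaks rose and 9 fell (16.4% called, beside 19.8% of all peaks), with a median of -0.13. Mir9-3, of the neuron-enriched list, held 46.16 and 36.82 in WT and 28.9 and 24.59 in SgshKO at its start (-0.61 ± 0.2, limma adjusted p = 0.034). The Mir9-3 call ended in 6 of 15 alternatives, among them quantile normalization (-0.54, limma adjusted p = 0.0776) and leaving out WT replicate 1 (0.317), WT replicate 2 (0.0726) or SgshKO replicate 2 (0.119). That list had 5 higher and 7 lower of 55 peaks in these nuclei (21.8% called).

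The let-7 list rose in Olig2+ nuclei at 11 of 41 peaks (26.8% called, beside 8.17% of all peaks higher) and fell at 0, with a median of 0.36. let-7 microRNAs are high in differentiated cells, where Lin28 no longer blocks their maturation. Of the 11 peaks 9 lay at Mirlet7i and 2 at Mirlet7a-1. The start peak of Mirlet7i (chr10:122985709-122986232) held 206.43 and 209.66 tags in WT and 255.16 and 279.84 in SgshKO (0.36 ± 0.09, limma adjusted p = 0.00381). The other 8 lay 96813 to 104745 bp away, in introns of the phosphatase gene Ppm1h. The strongest of them held 128.63 and 125.28 in WT and 216.42 and 200.08 in SgshKO (0.71 ± 0.10, limma adjusted p = 8.76e-06). The Mirlet7i start had 77.04 and 80.76 (WT) and 62.12 and 59.68 (SgshKO) in NeuN+ nuclei, and 198.77 and 187.22 (WT) and 196.52 and 241.37 (SgshKO) in microglia, and was called in neither. Of the 9 Mirlet7i calls in Olig2+ nuclei 4 held without WT replicate 1, 4 without WT replicate 2 and 6 without SgshKO replicate 1.

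At Mir21a all 4 peaks of Olig2+ nuclei fell. Together they held 90.8 and 81.8 tags in the WT libraries, against 19.7 and 24.6 in SgshKO. The strongest Mir21a peak, in an intron of the autophagy gene Vmp1 (chr11:86596243-86596471), held 56.02 and 51.65 in WT and 7.38 and 11.3 in SgshKO (-2.43 ± 0.24, limma adjusted p = 1.95e-08). It was the largest decrease among better covered members and was called under all 15 alternatives. The other 3 changed by -1.25, -1.24 and -1.13 (limma adjusted p = 0.0121, 0.0188 and 0.0363). Of the 4 Mir21a calls 2 held after quantile normalization, 1 without each WT library and 3 without each SgshKO library. In NeuN+ nuclei none of 3 Mir21a peaks was called.

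The Mir23a locus opened in Olig2+ nuclei, at far lower levels than in microglia. All 11 changes were above 0 and 8 peaks were called, between -10.5 and -5.9 kb, with changes from 0.70 to 1.58. The Mir23a sums were 91.3 and 83.9 tags in WT and 171.6 and 203.4 in SgshKO. The -7731 bp peak of Mir23a held 7.26 and 9.2 in WT and 23.98 and 27.92 in SgshKO (1.55 ± 0.28, limma adjusted p = 0.000196) and was called under all 15 alternatives. In NeuN+ nuclei 4 of 11 Mir23a peaks were called, all lower, with sums of 283.8 and 278.4 in WT and 188.5 and 167.6 in SgshKO. Of the 8 Olig2+ calls at Mir23a 5 held without WT replicate 1, 2 without WT replicate 2 and 3 without SgshKO replicate 2. Over the myeloid list in Olig2+ nuclei 9 of 52 peaks rose and 8 fell, beside 8.17% higher and 11.7% lower of all peaks.

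Among the 6 loci with most peaks in Olig2+ nuclei only Mir1936 had called decreases and no increase. Mir7223 had 3 higher and 0 lower, Mir3089 had 7 higher and 1 lower, Mir692-3 had 2 higher and 0 lower, Mir7243 had 3 higher and 2 lower, and Mir3074-1 had 2 higher and 2 lower. Mir1936 lies in Itpk1, an inositol phosphate kinase gene, and 19 of its 100 peaks fell while 0 rose. Over all Olig2+ peaks 19.8% were called, 8.17% higher and 11.7% lower, so the called share at Mir1936 (19%) was near that background. At the other loci of these 6 the called share ran from 4.88% (Mir692-3) to 17.8% (Mir3089). The Mir1936 locus summed to 2922.7 and 2974.0 tags in WT and 2099.0 and 2174.9 in SgshKO. Its strongest call, at 6089 bp, ran from 422.72 and 416.75 in WT to 245.94 and 249.93 in SgshKO (-0.76 ± 0.07, limma adjusted p = 1.06e-08). Near Mir7021 10 of 31 peaks fell and 30 had negative changes. The strongest Mir7021 peak, 379507 bp from the start, held 625.52 and 606.98 in WT and 433.46 and 465.96 in SgshKO (-0.45, limma adjusted p = 2.8e-06). Mir6908, inside the pyridoxal kinase gene Pdxk, held 101.66 and 74.15 in WT and 22.13 and 26.59 in SgshKO (-1.80 ± 0.19, limma adjusted p = 3.32e-08). Among increases, Mir3057, inside Apba3, held 6.22 and 6.65 in WT and 27.05 and 23.93 in SgshKO (1.83 ± 0.29, limma adjusted p = 3.52e-05). A different Mir297c peak from the microglial one, 80554 bp from the start, rose from 8.82 and 14.83 to 38.73 and 57.16 (1.95). The highest Olig2+ member, at Mir7052, held 736.0 and 725.61 in WT and 745.19 and 751.12 in SgshKO and was not called (0.03, limma adjusted p = 0.669).

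To ask where the genotype change itself differed between sorts, peaks were matched when they overlapped one to one by 50% of each length in the 3 tables. This left 16761 shared peaks, 300 of them microRNA-nearest (207 genes). By the looser measure of at least 1 bp, the share of members that overlapped a peak in both other tables was 14.9% from microglia, 9.46% from NeuN+ nuclei and 14.3% from Olig2+ nuclei. Over all peaks it was 22.8%, 19.5% and 25.3%. The comparisons between sorts share libraries, so they are given side by side only.

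The change in microglia differed from that in NeuN+ nuclei at 77 of the 300 members (25.7%), 66 higher and 11 lower in microglia. Among all shared peaks 42.5% differed, 40.8% higher and 1.68% lower. Microglia and Olig2+ nuclei differed at 31 members (10.3%), 19 higher and 12 lower, beside 21.6% of all (17.6% higher and 3.99% lower). NeuN+ and Olig2+ nuclei differed at 62 members (20.7%), 2 higher and 60 lower in NeuN+ nuclei, beside 31.7% of all (0.913% higher and 30.8% lower). The median difference over all shared peaks was 0.6, 0.17 and -0.5 for these pairs, and over members 0.2, 0.01 and -0.26.

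Mir7240, inside the kinase gene Mast3, gave the smallest p between microglia and both nuclei sorts. Its peak (chr8:70796987-70797198 in microglia) held 188.4 and 188.92 tags in WT microglia and 478.76 and 431.69 in SgshKO (1.26 ± 0.26). In NeuN+ nuclei it held 250.94 and 233.24 in WT and 130.53 and 147.93 in SgshKO. In Olig2+ nuclei it held 295.64 and 281.76 in WT, against 156.78 and 144.91 in SgshKO (-0.93 ± 0.09). The Mir7240 change was higher in microglia by 2.06 ± 0.18 than in NeuN+ nuclei (limma adjusted p = 5.63e-09) and by 2.2 ± 0.18 than in Olig2+ nuclei (limma adjusted p = 2.62e-08). The start of Mir22hg differed by 1.87 ± 0.17 between microglia and NeuN+ nuclei (limma adjusted p = 9.83e-09) and by 1.55 ± 0.17 between microglia and Olig2+ nuclei (limma adjusted p = 1.04e-06). Mir8102 differed by 2.57 ± 0.26 between microglia and NeuN+ nuclei (limma adjusted p = 4.73e-08), where it held 237.91 and 202.18 in WT against 129.13 and 122.54 in SgshKO. The microglial call of Mir7240, taken alone, ended without either WT library, with changes of 1.26 and 1.27. Its differences between sorts held under all 12 alternatives, but they came from a model that gave all 12 libraries 1 common spread. The standard error of the Mir7240 difference (0.18) was therefore smaller than that of its microglial change alone (0.26), so the differences are not sturdier than the microglial call.

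Mir7015, in an intron of the trafficking gene Smap2, went the opposite way. It held 29.38 and 22.87 tags in WT microglia and 0.87 and 1.86 in SgshKO, and in Olig2+ nuclei 49.79 and 48.58 in WT against 41.81 and 47.86 in SgshKO. The Mir7015 peak was also called lower in NeuN+ nuclei, with 9.63 and 20.33 in WT and 6.28 and 6.98 in SgshKO (-0.98, limma adjusted p = 0.0389). That NeuN+ call held in 7 of 15 alternatives. The microglial call of Mir7015, taken alone, ended without either WT library, with changes of -3.37 and -3.72. The difference of changes at Mir7015 was -3.41 ± 0.5 (microglia minus Olig2+ nuclei, limma adjusted p = 2.46e-05). Between NeuN+ and Olig2+ nuclei the smallest p values belonged to 3 other peaks. Mir6951 held 35.12 and 29.37 in WT NeuN+ nuclei and 14.66 and 19.05 in SgshKO. In Olig2+ nuclei Mir6951 held 66.91 and 58.29 in WT against 132.19 and 141.58 in SgshKO, a difference of -2.02 ± 0.26 (limma adjusted p = 5.2e-05). Mir193a held 181.83 and 166.04 in WT NeuN+ nuclei and 81.67 and 69.2 in SgshKO. In Olig2+ nuclei Mir193a held 298.24 and 305.28 in WT against 329.55 and 303.11 in SgshKO (-1.26 ± 0.2, limma adjusted p = 0.000171). The -7.7 kb peak of Mir23a held 14.16 and 14.12 in WT and 7.68 and 10.79 in SgshKO NeuN+ nuclei, and differed from Olig2+ nuclei by -2.13 ± 0.35 (limma adjusted p = 0.00022). In microglia the same Mir23a peak held 194.45 and 166.04 in WT and 567.06 and 381.56 in SgshKO. These named differences held their call and direction under all 12 alternatives tried. In-peak scaling, median of ratios, edgeR and DESeq2 were not among these 12.

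**Figure D5:**
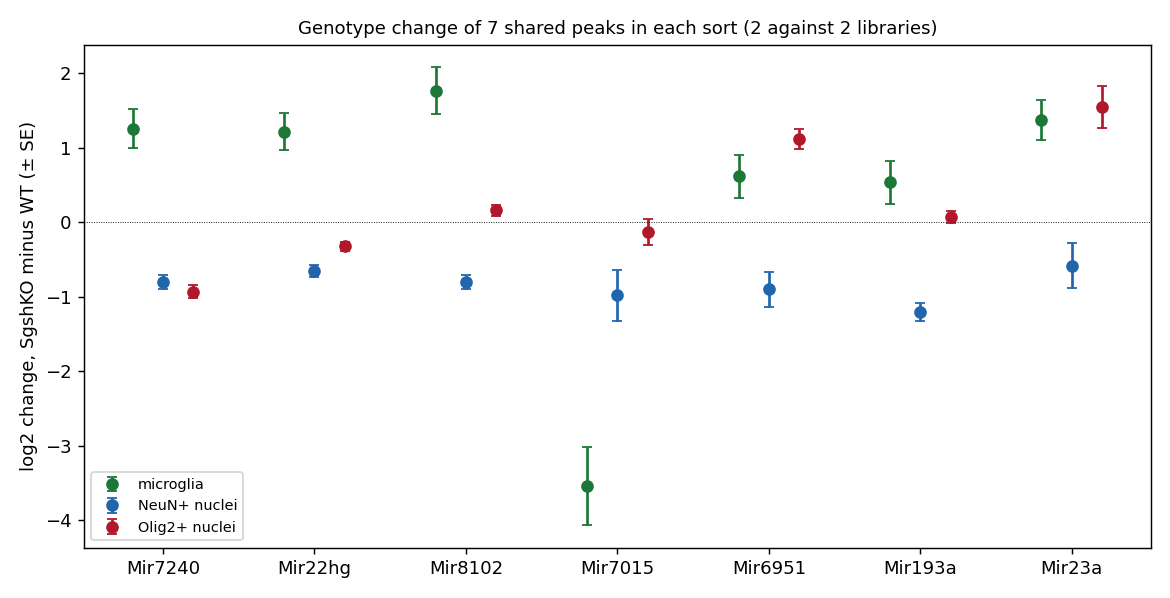
Log2 change (SgshKO minus WT) with its standard error at the 7 named shared peaks in each of the 3 sorts. Mir7240 lies at 1.26 in microglia and -0.93 in Olig2+ nuclei.

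The peak at -8.4 kb from Mirlet7a-1 was high in all 3 sorts. Besides its rise in microglia, it held 463.36 and 412.83 tags in WT and 301.53 and 314.91 in SgshKO NeuN+ nuclei (-0.50 ± 0.07, limma adjusted p = 8.65e-05). In Olig2+ nuclei it held 625.52 and 623.34 in WT and 694.15 and 724.53 in SgshKO (0.18 ± 0.05, limma adjusted p = 0.015). After quantile normalization the NeuN+ change of Mirlet7a-1 was 0.03. The Olig2+ call of Mirlet7a-1 ended after quantile normalization (limma adjusted p = 0.0637) and without WT replicate 1 (0.0778), WT replicate 2 (0.086) or SgshKO replicate 2 (0.0868). The differences between sorts were not among those named by smallest p.

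Genes that make and use microRNAs were read at their own starts. The list held 26 symbols (the Drosha and Dicer complexes, Argonautes, their cofactors and exporters), with Tut4 and Tut7 also under their older symbols Zcchc11 and Zcchc6. Drosha itself had no start peak in any sort. Of the 26 symbols 21 had a start peak in microglia, 2 rose and 0 fell, beside 8.59% of all start peaks higher and 1.2% lower. Prkra, a Dicer cofactor, held 276.55 and 177.9 tags in WT and 437.2 and 528.24 in SgshKO (1.11 ± 0.27, limma adjusted p = 0.00669), and Snd1, a nuclease of the silencing complex, held 335.31 and 299.05 in WT and 696.06 and 594.15 in SgshKO. In NeuN+ nuclei 21 had one, 0 rose and 14 fell, beside 44.9% of all start peaks lower. Dicer1 held 143.88 and 124.24 there in WT and 97.02 and 85.71 in SgshKO (-0.55 ± 0.12, limma adjusted p = 0.00325), and Dgcr8 held 327.41 and 303.84 in WT and 219.87 and 200.63 in SgshKO. In Olig2+ nuclei 20 had one, 5 rose and 3 fell, beside 12.7% higher and 7.56% lower of all start peaks. Dicer1 held 129.67 and 126.3 in WT and 186.3 and 204.73 in SgshKO there (0.61 ± 0.1, limma adjusted p = 9.59e-05). In the order microglia, NeuN+ nuclei, Olig2+ nuclei, the median change of these starts was 0.34, -0.57 and 0.22.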

How the data were processed

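ATAC-seq libraries (single-end, fragments of 155 to 250 bp, per the labels' protocols) were processed by the submitters with Bowtie2 and HOMER on mm10, per the submitters' processing notes, which give no versions. The deposited signal is tags per peak, which per the file headers was scaled to 10000000 tags per library. The authors' Peak Score is a score per peak and was used only as a filter (1000 in 1 alternative). Dividing out the scaling gave whole reads for 100% of values (within 0.01). All 12 value columns matched a sample and 0 were left over.

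Each table was fitted alone over all its peaks on log2(tags + 1), two-sided and with no covariate, using lmFit and eBayes (trend) of limma 3.58.1 under R 4.3.3. Differences between sorts came from 1 limma model over 12 libraries, as contrasts of genotype changes, with 1 spread per peak for all sorts. Alternatives were other scalings, pseudocounts of 0.5 and 5, filters, a replicate block, edgeR 4.0.16 and DESeq2 1.42.0 on the recovered reads, and leaving out each library (for the model over 12 libraries, chosen after seeing the data). The fits were tested on simulated data. Sequences and coding genes came from RefSeq tables of GRCm38.p6. Of the microRNA symbols, 525 of 589 in microglia, 664 of 740 in NeuN+ nuclei and 502 of 557 in Olig2+ nuclei were in its miRNA table. Peak coordinates are those of the files.

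Named peaks were, per table: the 5 largest called increases and 5 largest called decreases with non-overlapping groups and a mean at or above the table's median; the 5 highest peaks; the start peak of each role-list gene; and the 3 shared peaks with the smallest p per pair of sorts, at most 1 per gene. Loci described by their sums, the called start peaks of microglia and the peaks of Mir128-2, Mir133a-2 and Mirlet7a-1 away from the start were chosen after their values were seen. Members and lists were chosen with earlier results of these data known. Intervals between replicates were not computed with 2 libraries per group; each library's value is given.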

Additional observations from a re-analysis of the deposited data

Results flagged for a closer look

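The 9 differences with the smallest p (3 for each pair of sorts) are those where the genotype change of a shared peak differed most clearly between sorts, by limma's test of the difference itself. Between microglia and NeuN+ nuclei these were Mir7240 (2.06, adjusted p = 5.63e-09), Mir22hg (1.87, adjusted p = 9.83e-09) and Mir8102 (2.57, adjusted p = 4.73e-08), all higher in microglia. Between microglia and Olig2+ nuclei they were Mir7240 (2.2), Mir22hg (1.55) and Mir7015 (-3.41). Between NeuN+ and Olig2+ nuclei they were Mir6951 (-2.02), Mir193a (-1.26) and the -7.7 kb peak of Mir23a (-2.13), all lower in NeuN+ nuclei. Over 12 alternatives the Mir22hg difference between microglia and NeuN+ nuclei ranged from 0.75 to 2.01, and that of Mir7240 in the same pair from 1.05 to 2.15. All 12 kept 1 common spread for microglia and nuclei, although the microglial libraries varied more. None of the 12 used in-peak scaling or median of ratios.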

How the results depend on the processing

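Counts of called members moved as follows; the cause was not tested. In microglia (203 called) the count was 457 with in-peak scaling, 353 by median of ratios, 344 after quantile normalization, 130 without the lowest 25% of peaks, 445 with a replicate block, 425 by edgeR, 131 by DESeq2 and 85 at an adjusted p under 0.01. Leaving out 1 library gave 11 (WT replicate 2) to 561 (SgshKO replicate 1). Within 1000 bp (11 called) these counts were 37, 25, 20, 7, 33, 33 and, at 0.01, 4, with 34 within 3000 bp and 0 to 40 without 1 library. In NeuN+ nuclei (1185) the count was 603 after quantile normalization, 789 with Peak Score 1000 only, 134 by DESeq2 and 470 at 0.01, and 0 to 426 without 1 library (0 without either SgshKO library). Within 1000 bp (141) it was 76 with in-peak scaling, 80 by median of ratios, 44 after quantile normalization, 89 by edgeR, 12 by DESeq2, 57 at 0.01, 268 within 3000 bp and 0 to 50 without 1 library. In Olig2+ nuclei (565) it was 105 by DESeq2, 234 at 0.01 and 193 to 538 without 1 library. Within 1000 bp (53) it was 16 by DESeq2, 22 at 0.01, 99 within 3000 bp and 22 to 48 without 1 library.

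Members that differed between sorts numbered 60 to 96 (microglia and NeuN+ nuclei), 26 to 54 (microglia and Olig2+ nuclei) and 33 to 51 (NeuN+ and Olig2+ nuclei) without 1 library, and 28 after quantile normalization for the last pair. In microglia and Olig2+ nuclei the count was 54 and 51 without microglial SgshKO replicate 1 and 2. For the last pair it was 33 without NeuN+ WT replicate 1 and 38 without Olig2+ WT replicate 2.

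Quantile normalization reversed the sign at Mir6944 (-0.08), Mir3075 (-0.04), Mir3074-2 (-0.09) and Mir8104 (-0.02) in microglia, and at Mirlet7a-1 (0.03), Mir5133 (0.16) and Mir5627 (0.12) in NeuN+ nuclei. Of 106 named calls, 96 held with in-peak scaling, 80 after quantile normalization, 98 by edgeR, 63 of the 91 with an adjusted p by DESeq2, 56 and 47 without WT replicate 1 and 2, and 69 and 67 without SgshKO replicate 1 and 2. All 106 held with the replicate block. Deviations of same-numbered libraries correlated over peaks at 0.042, 0.004 and 0.001 in the 3 sorts, and the main fit did not pair them. This correlation cannot decide on pairing, because it does not see a shift common to all peaks. In microglia replicate 1 had more tags inside peaks than replicate 2 in WT (55.8% and 48.7%) and in SgshKO (67.4% and 53.7%). With the replicate block the count of called microglial members rose from 203 to 445. With 2 libraries a group, each fit without 1 library assumes that the lone library varies like the others.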

Other observations

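A peak 22668 bp from the start of Mir133a-2 (chr2:180420926-180421168), a microRNA known from muscle, was nearly empty in 1 microglial library. It held 219.51 tags in WT replicate 1, 0.85 in WT replicate 2, and 279.63 and 218.17 in the SgshKO libraries, which is 254, 1, 323 and 235 reads. The peak was called (3.62, limma adjusted p = 0.00566) although the groups overlap. Without WT replicate 2 the change of Mir133a-2 was 0.17 (limma adjusted p = 0.96), and edgeR on the recovered reads gave 1.29 (adjusted p = 0.183). Among 91770 microglial peaks it was the only one with at most 5 reads in 1 library and at least 100 in each of the other 3, and the tables of NeuN+ and Olig2+ nuclei held 0 such peaks. This peak was singled out after its values were seen, and the cause was not tested.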
